A study of Mus musculus with 6 samples.

Results

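The antigen presentation genes described here are 40 protein-coding genes of the deposited count table. They comprise each gene named with the prefix H2-, leaving out H2-Ke6, which encodes a hydroxysteroid dehydrogenase, and 7 further genes, namely B2m, Tap1, Tap2, Tapbp, Nlrc5, Cd74 and Ciita. Of the 40 among 54532 genes in the table, 29 belong to the class I pathway and 11 to the class II pathway. The sequenced RNA came from left ventricles taken 4 weeks after aortic banding (AB) from 3 TG and 3 NTG mice. AB is a surgical narrowing of the aorta that puts the heart under pressure overload, and all 6 mice had been banded. TG mice carry the genotype HINT2CTG-Myh6Cre, in which tamoxifen-activated Cre under the cardiomyocyte promoter Myh6 turns on a HINT2 transgene with a CAG promoter, and NTG mice are labelled C57BL/6J. The mice of the banding model were males aged 8 to 10 weeks at surgery, and whether the NTG mice had received Cre or tamoxifen is not given in the sources used here. Nothing in the labels says more about the replicates than their number, so p-values measure the spread between these libraries.

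Library totals ran from 14863568 to 17581220 counts on genes in NTG and from 14944465 to 17235802 in TG. Levels below are CPM, that is, counts scaled to a common library total with TMM factors, and the genes took 0.203% to 0.312% of all counts in NTG and 0.259% to 0.646% in TG. Hint2 was read as a check of the labels. It had 793, 828 and 859 counts in the TG libraries, 545 and 559 in NTG 2 and NTG 3, and 12 in the library labelled NTG 1, which goes against that label. Libraries were also compared over all genes by a chi-square of the counts per gene, lower for more alike libraries. NTG 1 was nearer to TG 1 (21.5), TG 2 (17.8) and TG 3 (28.1) than to NTG 2 (71.2) or NTG 3 (33.1). TG 2 was likewise nearer to NTG 1 and NTG 3 (28.5) than to TG 1 (32.0) or TG 3 (36.8). This measure thus did not single out NTG 1, and it bears on each TG and NTG difference below. NTG 1 had this Hint2 count, and TG 3 stood apart for most of the genes below. Class medians and counts are therefore also given without NTG 1 and without TG 3. For the antigen presentation genes described in full, the log2 fold changes are also given without TG 3. Genes of other lists are given with all 6 libraries only. The cardiomyocyte markers checked against the tissue label were high in each library, with 17928 to 30298 summed CPM over 6 genes in NTG and 29081 to 36105 in TG.

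MHC class I molecules, made of a heavy chain and the light chain beta-2 microglobulin (B2m), stand on nearly all nucleated cells and show peptides from the cell's own proteins to CD8 T cells and natural killer cells. The peptides are cut by the proteasome, pumped into the endoplasmic reticulum by the TAP transporter and loaded with the help of tapasin. MHC class II molecules are pairs of alpha and beta chains made chiefly by dendritic cells, macrophages and B cells, and they show peptides from engulfed material to CD4 T cells after the invariant chain Cd74 has been removed in endosomes. Nlrc5 drives transcription of class I genes and Ciita that of class II genes, both through a factor complex bound to the X and Y boxes of the promoters, and interferon gamma induces both. In the heart most cells with class II are resident or recruited macrophages, while cardiomyocytes have low class I. In bulk tissue, fewer cells of a type and less RNA per cell cannot be told apart.

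Promoters of 5 class I heavy chain genes and of 3 class II genes are shown as examples in which most of the short elements named below lie close together. Of the 5 class I genes, all but H2-D1 had TG above NTG without overlap, and the 3 class II genes overlapped between the groups. They are RefSeq sequences of GRCm38.p6, read 5′ to 3′ on the strand of the gene, and each stretch ends before the RefSeq start of transcription. These starts can differ from the gene bounds of the annotation used elsewhere, in which the H2-D1 and H2-DMb1 stretches lie just inside the gene. H2-K1 is at chr17:34000409-34000477 on the minus strand and H2-D1 at chr17:35262904-35263067 on the plus strand. H2-Q4 is at chr17:35379444-35379588, H2-Q6 at chr17:35424658-35424821 and H2-Q7 at chr17:35439003-35439154, all on the plus strand. Of the class II genes, H2-Aa is at chr17:34287847-34287912 on the minus strand, H2-Eb1 at chr17:34305761-34305832 on the plus strand and H2-DMb1 at chr17:34153082-34153154 on the plus strand. Capitals mark matches, on either strand, to an NF-kB-like element (GGGATTCCC), an interferon-response-like element (GAANNGAAA, seen here as its reverse complement), an X2-like element (TGATGA) and the Y box (TGATTGG), and none of these matches overlapped another in the stretches shown.
H2-K1: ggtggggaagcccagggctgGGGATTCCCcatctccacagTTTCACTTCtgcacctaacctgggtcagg
H2-D1: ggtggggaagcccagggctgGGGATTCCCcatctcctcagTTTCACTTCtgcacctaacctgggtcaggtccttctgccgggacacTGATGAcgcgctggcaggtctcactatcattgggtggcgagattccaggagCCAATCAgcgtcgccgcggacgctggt
H2-Q4: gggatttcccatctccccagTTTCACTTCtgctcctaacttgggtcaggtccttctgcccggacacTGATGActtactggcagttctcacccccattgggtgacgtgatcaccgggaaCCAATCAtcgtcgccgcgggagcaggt
H2-Q6: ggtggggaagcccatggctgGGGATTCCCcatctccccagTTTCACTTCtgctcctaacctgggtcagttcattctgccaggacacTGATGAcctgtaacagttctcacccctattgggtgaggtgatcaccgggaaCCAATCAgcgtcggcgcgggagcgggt
H2-Q7: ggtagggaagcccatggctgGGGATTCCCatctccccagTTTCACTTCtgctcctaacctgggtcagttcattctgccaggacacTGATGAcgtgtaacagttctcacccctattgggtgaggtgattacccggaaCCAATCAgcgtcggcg
H2-Aa: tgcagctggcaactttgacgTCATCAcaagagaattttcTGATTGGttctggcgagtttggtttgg
H2-Eb1: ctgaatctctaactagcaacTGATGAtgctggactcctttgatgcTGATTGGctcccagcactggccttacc
H2-DMb1: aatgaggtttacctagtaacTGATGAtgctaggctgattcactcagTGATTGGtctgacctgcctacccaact

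The elements were chosen after these sequences had been seen, so their matches are a description. Over windows of 300 bases around each start, the NF-kB-like letters occurred in 0.353% of all 32851 promoters, the interferon-response-like letters in 7.52%, the X2-like letters in 12.4% and the Y box in 7.82%. Among the genes with enough counts to be tested, 12 of class I and 6 of class II had a promoter in the RefSeq table. The NF-kB-like letters were in 4 of the class I promoters (H2-K1, H2-D1, H2-Q6 and H2-Q7) and in 0 of the class II promoters. The interferon-response-like letters were in 7 of the class I promoters, those of H2-K1, H2-D1, H2-Q4, H2-Q6, H2-Q7, H2-Q10 and H2-M3, and in 0 of class II. The Y box was in 8 class I and 5 class II promoters, and the X2-like letters in 6 and 3. In H2-K1 the Y box letters run across the start and are not shown.

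Of the 29 class I genes, 15 had enough counts to be tested, and of the 11 class II genes 9 had. The fitted TG level exceeded that of NTG for all 15 and all 9, while it did so for 48.7% of the 14774 genes tested. The median log2 fold change was 0.79 in class I, 0.56 in class II and −0.01 over all genes tested. No gene passed an adjusted p under 0.05 with a log2 fold change over 0.5 in size by edgeR's quasi-likelihood test, so 0 of the 24 were called where 0% of all genes were. The smallest adjusted p among the 24 was 0.196. At an unadjusted p under 0.05, 8 class I genes and 1 class II gene were higher, against 8.83% of all genes tested, and 0 were lower. That count depended on the low-count filter and on single libraries. It was 4 in class I and 1 in class II with no filter (6.08% of all genes), 1 and 1 when NTG 2 was omitted (5.08%) and 13 and 1 when TG 1 was omitted (4.98%). DESeq2, the tool the authors used, called 4 of the 24 higher at the same thresholds (H2-K1, H2-Q4, Tap1 and Nlrc5), against 1.54% of all genes. The likelihood-ratio test of edgeR called 4 (H2-Q4, H2-Q6, H2-Q7 and Nlrc5), against 1.39%. Limma-voom called 0 of the 24 and also 0 of all 14774 genes tested. For 7 of the 24, all in class I, the lowest TG library exceeded the highest NTG library, against 11.2% of all genes tested.

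**Figure D1:**
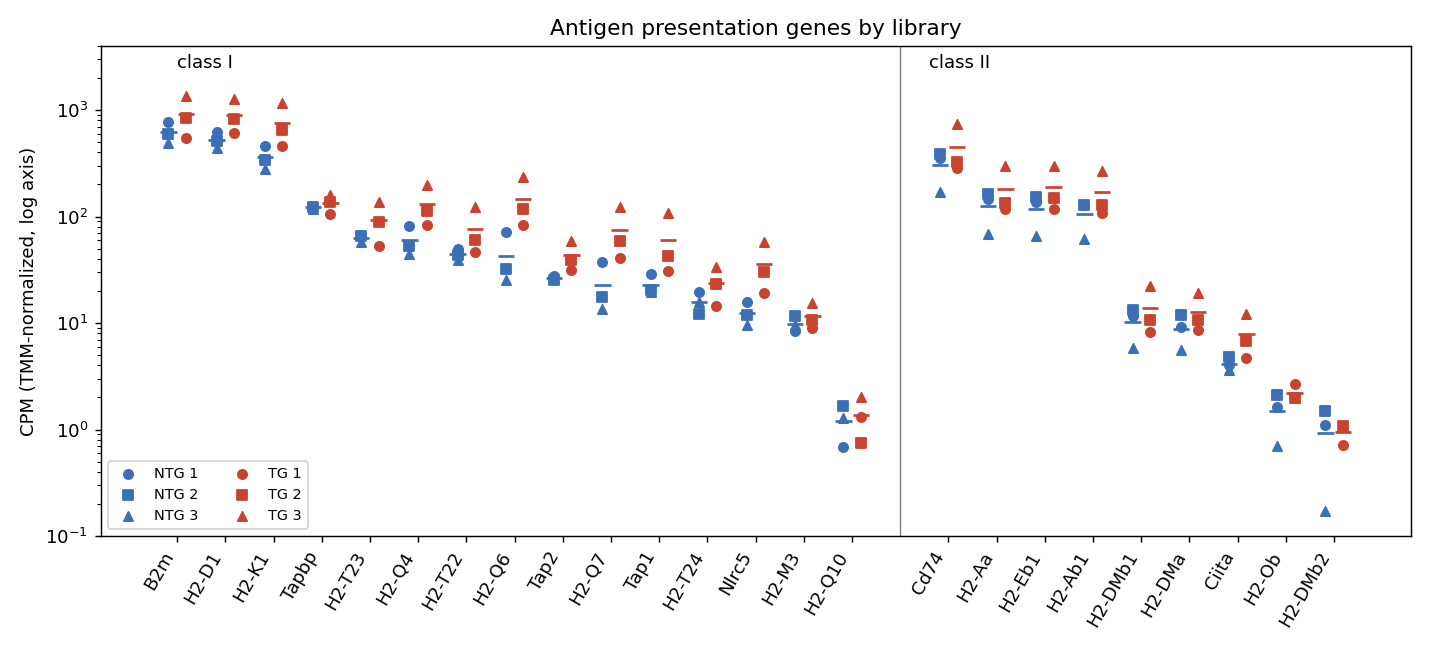
CPM on a log axis for the 24 tested genes, with NTG libraries in blue, TG libraries in red, a symbol for each replicate number and a short line for each group mean. The TG 3 triangle is the top point for 22 of the 24 genes, and the NTG 3 triangle is the bottom point for each of the 9 class II genes.

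The classical class I heavy chains are H2-K1 and H2-D1, which present most peptides to CD8 T cells. H2-K1 (ENSMUSG00000061232, chromosome 17, 33996017 to 34000333, minus strand, GRCm38) measured 456, 342 and 281 CPM in NTG 1, NTG 2 and NTG 3 and 462, 643 and 1169.7 CPM in TG 1, TG 2 and TG 3. All TG libraries lay above all NTG libraries, but TG 1 exceeded NTG 1 by little. The group means were 758 ± 368 CPM in TG and 359.8 ± 89.1 CPM in NTG (SD, n = 3 each), a log2 fold change of 1.08 (standard error, SE, 0.36, edgeR adjusted p = 0.214, DESeq2 adjusted p = 0.0237). H2-D1 (ENSMUSG00000073411, 35262730 to 35267499, plus strand) measured 617, 516 and 436 CPM in the NTG libraries and 606, 833 and 1283 CPM in the TG libraries in the same order. Here TG 1 fell between NTG 1 and NTG 2, so the groups overlapped. The log2 fold change of H2-D1 was 0.79 (SE 0.27, edgeR adjusted p = 0.216, DESeq2 adjusted p = 0.0510). Without TG 3 the log2 fold changes were 0.62 for H2-K1 and 0.46 for H2-D1.

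The Q region genes H2-Q6 and H2-Q7 had the highest fold changes of the 24. They encode the Qa-2 antigens, non-classical class I molecules of which part is anchored in the membrane by a lipid. H2-Q6 measured 70.9, 32.4 and 25.6 CPM in NTG 1, NTG 2 and NTG 3 and 82.9, 118 and 233 CPM in TG 1, TG 2 and TG 3. H2-Q7 measured 37.5, 17.6 and 13.7 CPM in NTG and 41.0, 59.5 and 123 CPM in TG, and H2-Q4 measured 81.3, 52.7 and 44.7 CPM in NTG and 83.4, 113 and 197 CPM in TG. TG and NTG values were separate for each of the 3, and NTG 1 was close under TG 1 in each. The log2 fold changes were 1.76 for H2-Q6 (SE 0.51, adjusted p = 0.204), 1.71 for H2-Q7 (SE 0.52, adjusted p = 0.207) and 1.14 for H2-Q4 (SE 0.36, adjusted p = 0.211), all by edgeR. With DESeq2 the adjusted p was 0.0712 for H2-Q6, 0.0919 for H2-Q7 and 0.0182 for H2-Q4. Without TG 3 the log2 fold changes of H2-Q6, H2-Q7 and H2-Q4 were 1.23, 1.14 and 0.72. H2-Q10, a secreted class I chain made mainly in liver, was low, with 0.683 to 1.65 CPM in NTG and 0.739 to 2.04 CPM in TG.

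The T region genes overlapped between the groups. H2-T23 encodes Qa-1, which presents peptides of other class I chains to natural killer cell receptors, and measured 66.9, 65.1 and 57.9 CPM in NTG and 53.2, 89.4 and 136 CPM in TG. Its TG 1 library was the lowest of the 6. H2-T22, a ligand of some gamma delta T cells, measured 49.8, 43.8 and 39.2 CPM in NTG and 46.4, 60.5 and 124 CPM in TG. H2-T24 ranged from 12.1 to 19.7 CPM in NTG and from 14.6 to 33.6 CPM in TG. The log2 fold changes of the 3 lay between 0.56 and 0.80, with adjusted p from 0.287 to 0.368 (edgeR). Without TG 3 they were 0.17 for H2-T23, 0.27 for H2-T22 and 0.26 for H2-T24. In the M region, 1 of 12 genes was tested. This was H2-M3, which presents formylated peptides, with 8.33 to 11.7 CPM in NTG, 9.02 to 15.5 CPM in TG and a log2 fold change of 0.25 (SE 0.23, edgeR adjusted p = 0.566), or −0.00043 without TG 3.

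Reads of these heavy chains are partly shared. Of all stretches of 50 bases in the annotated transcripts of H2-Q6, 27.0% also occurred in those of another H2- gene, as did 25.1% for H2-Q7, 16.5% for H2-Q4, 10.9% for H2-D1 and 9.63% for H2-K1. The largest share, 34.4%, was that of H2-T22, mostly with its neighbour H2-T10. How reads that map to several places were counted is not given in the sources used here, so the split between these genes is uncertain. B2m, Nlrc5, Cd74, Ciita and the class II chains H2-Aa, H2-Ab1 and H2-Eb1 shared 0% of their stretches with other genes compared.

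B2m, the light chain of class I, lies outside the MHC on chromosome 2 (122147686 to 122153083, plus strand). It measured 766, 596 and 486 CPM in NTG 1, NTG 2 and NTG 3 and 552, 834 and 1348 CPM in TG 1, TG 2 and TG 3. TG 1 lay below NTG 1 and NTG 2, and the log2 fold change was 0.56 (SE 0.33, edgeR adjusted p = 0.382), or 0.17 without TG 3. The classical heavy chains were also set against the light chain within each library. The ratio of H2-K1 counts to B2m counts, which does not depend on library scaling, was 0.596, 0.574 and 0.578 in NTG and 0.836, 0.772 and 0.868 in TG, with no overlap. The ratio of H2-D1 to B2m was 0.806, 0.865 and 0.897 in NTG and 1.098, 0.999 and 0.952 in TG, also without overlap. An exact two-sided permutation test of 3 libraries against 3 cannot give a p under 0.1, which is the value for both ratios.

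Peptide transport and loading genes differed among themselves. Tap1 and Tap2 encode the paired chains of the TAP transporter and lie in the class II region of the MHC with Psmb8 between them. Tap1 measured 28.7, 20.3 and 19.6 CPM in NTG and 30.7, 42.5 and 108 CPM in TG, and Tap2 measured 27.6, 25.4 and 26.3 CPM in NTG and 31.2, 38.7 and 59.4 CPM in TG. All TG libraries lay above all NTG libraries for both. The log2 fold change was 1.40 for Tap1 (SE 0.47, edgeR adjusted p = 0.217, DESeq2 adjusted p = 0.0190) and 0.71 for Tap2 (SE 0.22, adjusted p = 0.207 and 0.0585). Omitting TG 3 gave 0.68 for Tap1 and 0.40 for Tap2. Tapbp, which encodes tapasin, measured 123, 124 and 118 CPM in NTG and 106, 137 and 161 CPM in TG, where TG 1 was the lowest library of all. Its log2 fold change was 0.14 (SE 0.15, edgeR adjusted p = 0.619), or −0.0064 without TG 3. Exons of Tap1 overlap those of Psmb9 on the opposite strand by 212 bases, and exons of Tapbp overlap those of Zbtb22 on the same strand by 149 bases, so reads there cannot be assigned with certainty.

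Nlrc5 (ENSMUSG00000074151, chromosome 8, 94434356 to 94527272, plus strand), the transactivator of class I, had the smallest p of the 24. It measured 15.8, 11.9 and 9.60 CPM in NTG 1, NTG 2 and NTG 3 and 19.0, 30.0 and 57.9 CPM in TG 1, TG 2 and TG 3, without overlap. The group means were 35.6 ± 20.04 CPM in TG and 12.4 ± 3.12 CPM in NTG (SD, n = 3 each), and the log2 fold change was 1.53 (SE 0.41, edgeR adjusted p = 0.196, DESeq2 adjusted p = 0.00410). The same libraries were high and low as for H2-K1, H2-Q4, H2-Q6, H2-Q7 and Tap1. Leaving out any 1 library, the log2 fold change of Nlrc5 stayed between 0.98 (without TG 3) and 1.82.

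**Figure D2:**
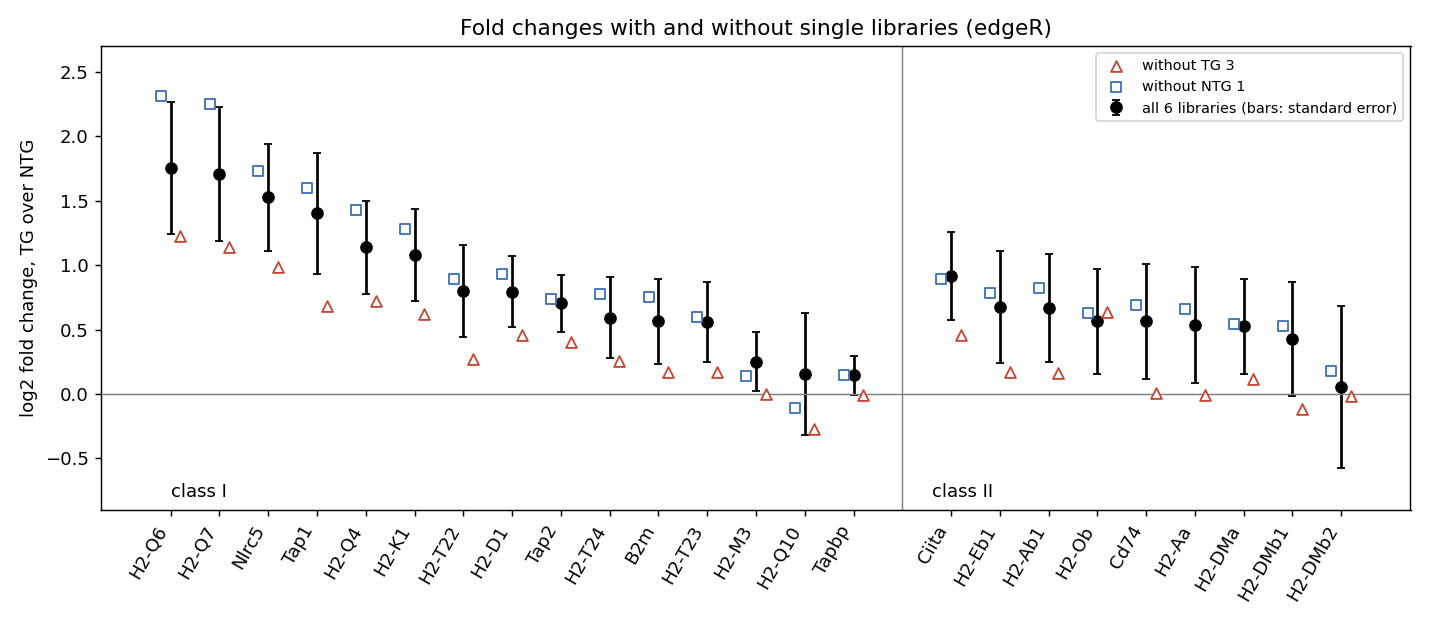
Log2 fold change of TG over NTG for the 24 tested genes, with black points for all 6 libraries, bars for the standard error, red open triangles for the fit without TG 3 and blue open squares for the fit without NTG 1. Without TG 3, 12 of 15 class I genes and 6 of 9 class II genes stayed above 0, and the class II points other than H2-Ob and Ciita lay between −0.12 and 0.17.

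Among the class II genes, the classical chains H2-Aa, H2-Ab1 and H2-Eb1 did not separate the groups. H2-Aa, the alpha chain of I-A (ENSMUSG00000036594, chromosome 17, 34282744 to 34287827, minus strand), measured 147, 163 and 68.8 CPM in NTG and 118, 134 and 296 CPM in TG. H2-Ab1, its beta chain, measured 128, 129 and 61.6 CPM in NTG and 109, 128 and 268 CPM in TG. H2-Eb1, the beta chain of I-E, measured 137, 152 and 66.4 CPM in NTG and 118, 148 and 301 CPM in TG. In each case NTG 3 was the lowest and TG 3 the highest library, and TG 1 and TG 2 lay within the NTG range. The log2 fold changes were 0.53, 0.67 and 0.67 in the order given, with standard errors of 0.45, 0.42 and 0.43 and adjusted p of 0.541, 0.418 and 0.428 (edgeR). Omitting TG 3 gave −0.0043, 0.16 and 0.17. The alpha chain of I-E is inactive in C57BL/6 mice, and its row, H2-Ea-ps, held 2 counts over all libraries.

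Cd74, the invariant chain that guards the peptide groove of class II, was the most abundant class II transcript. It measured 356, 384 and 169.7 CPM in NTG and 286, 326 and 733 CPM in TG, and the groups overlapped (log2 fold change 0.56, SE 0.45, edgeR adjusted p = 0.516, and 0.011 without TG 3). Per kb of gene length it averaged 215 CPM in NTG and 318 CPM in TG, against 100.01 and 159.6 CPM per kb for H2-Eb1. The classical chains were set against Cd74 within each library. The ratio of H2-Aa to Cd74 counts ran from 0.405 to 0.423 in NTG and from 0.405 to 0.412 in TG, and that of H2-Ab1 to Cd74 from 0.335 to 0.363 and from 0.365 to 0.394. The ratio of H2-Eb1 to Cd74 ran from 0.384 to 0.396 in NTG and from 0.411 to 0.453 in TG. The groups overlapped for H2-Aa but not for H2-Ab1 or H2-Eb1, and the smallest p that an exact permutation test of 3 against 3 can give is 0.1.

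The peptide exchange genes had lower levels, and TG 3 was the highest library for 2 of the 4 tested. H2-DMa and H2-DMb1 encode the chains of H2-DM, which swaps the invariant chain remnant for a peptide. H2-DMa measured 9.15, 11.8 and 5.61 CPM in NTG and 8.51, 10.7 and 19.1 CPM in TG, and H2-DMb1 measured 11.7, 13.2 and 5.84 CPM in NTG and 8.22, 10.7 and 22.4 CPM in TG. Their log2 fold changes were 0.53 and 0.43 (standard errors 0.37 and 0.44, adjusted p = 0.462 and 0.627, edgeR), and without TG 3 they were 0.11 and −0.12. H2-DMb2, which shares 21.2% of its 50-base stretches with H2-DMb1, had 3 to 28 counts per library, and H2-Ob, a chain of the H2-DM inhibitor H2-DO, had 12 to 40. Ciita, the transactivator of class II, measured 4.03, 4.83 and 3.59 CPM in NTG and 4.69, 6.71 and 12.1 CPM in TG. TG 1 fell just below NTG 2, and the log2 fold change was 0.92 (SE 0.34, edgeR adjusted p = 0.227, DESeq2 adjusted p = 0.126), or 0.46 without TG 3. Exons of Ciita overlap those of the more counted gene Dexi on the opposite strand by 329 bases.

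The remaining 16 genes were at or near 0. No counts were found in any library for 9, which are H2-T3 and the M region genes H2-M1, H2-M9, H2-M10.1, H2-M10.3, H2-M10.4, H2-M10.5, H2-M10.6 and H2-M11, and a count of 0 allows a level of up to 0.159 to 0.216 CPM depending on the library. The other 7 (H2-M2, H2-M5, H2-M10.2, H2-Q1, H2-Q2, H2-Oa and H2-Eb2) had 0 to 11 counts per library. Differences between the groups were not detectable at this depth for these 16.

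The libraries of a group also differed from each other. TG 1 lay below TG 2 and TG 2 below TG 3 for 14 of 15 class I and 7 of 9 class II genes, against 15.3% of all genes tested. The ratio of TG 3 to TG 1 had a median of 2.44 in class I and 2.52 in class II, and of 0.991 over all genes. TG 1 was above each NTG library for 7 class I genes and 1 class II gene, against 31.1% of all genes, and TG 2 for 13 and 1, against 24.9%. Within NTG the classes had different orders of libraries. NTG 1 was the highest NTG library for 12 of 15 class I genes and 0 of 9 class II genes, against 36.8% of all genes. NTG 2 was the highest for 3 class I genes and for all 9 class II genes, against 36% of all genes, and NTG 3 the lowest for 11 and 9, against 25.8%. Summed over class I, the level was 2371, 1874 and 1585 CPM in NTG and 2138, 3033 and 5052 CPM in TG, and over class II it was 796, 861 and 382 CPM in NTG and 656, 767 and 1655 CPM in TG.

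Without TG 3, the median log2 fold change was 0.40 in class I and 0.11 in class II. By edgeR, 7 class I genes and 0 class II genes then had an unadjusted p under 0.05, against 5.35% of all genes, and the smallest adjusted p of the 24 was 0.425. Over all fits that omitted 1 library, 1 to 13 class I genes and 0 or 1 class II gene had an unadjusted p under 0.05. The class I count was 1 without NTG 2, 5 without NTG 3 (5.15% of all genes), 7 without NTG 1 (13.7%) and 8 without TG 2 (9.08%). DESeq2 called 0 of the 24 without TG 3, where it called 0.193% of all genes higher. Without the library labelled NTG 1, the medians were 0.89 and 0.66, edgeR called 0 of the 24 where it called 2.67% of all genes higher and 2.85% lower, and DESeq2 called 6 (H2-D1, H2-Q4, H2-Q6, H2-Q7, Tap2 and Nlrc5), against 5.92%. The class II median was 0.27 without NTG 3. When single libraries were left out in turn, the class I median ran from 0.40 to 1.01 and the class II median from 0.11 to 0.80.

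**Figure D3:**
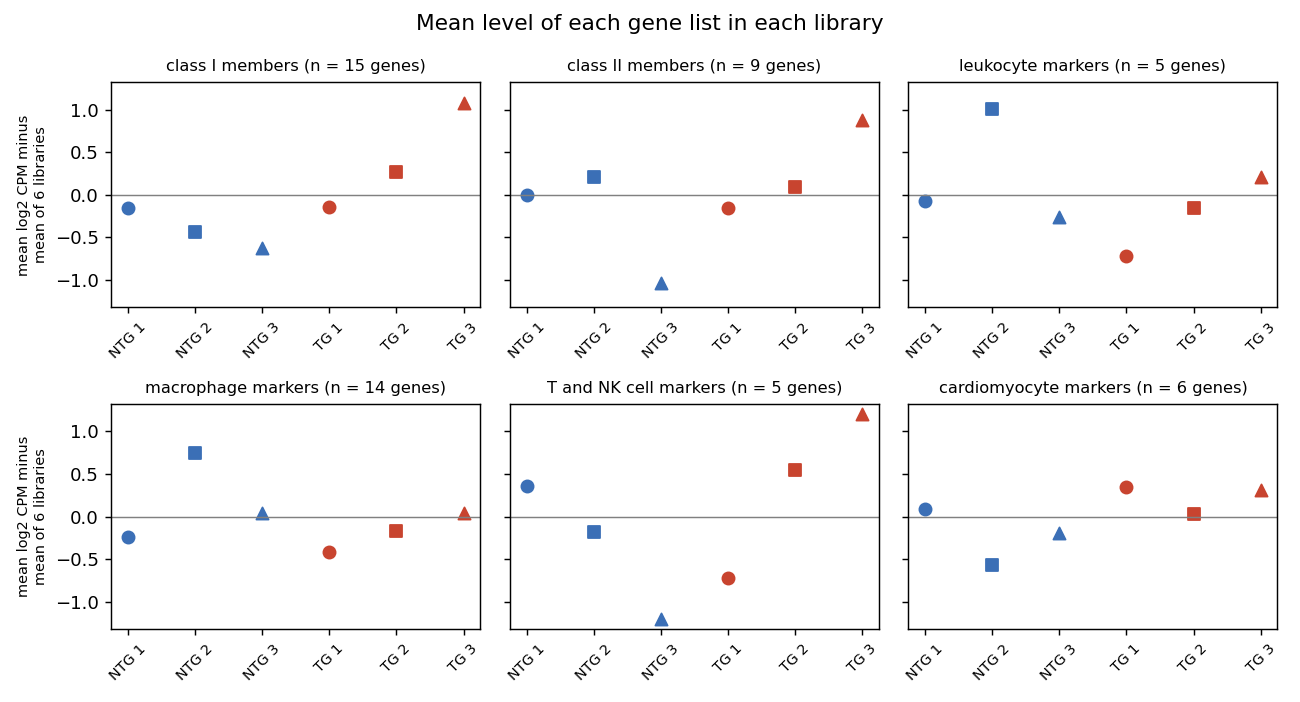
Mean over the genes of each list of log2 CPM in a library minus the mean of the 6 libraries, for NTG (blue) and TG (red), with a symbol for each replicate number. TG 3 is the highest library for class I (1.08), class II (0.88) and T and NK cell markers (1.20), while leukocyte and macrophage markers are highest in NTG 2 (1.002 and 0.75).

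Markers of other cell types were read beside these levels. All 5 leukocyte markers tested (Ptprc, Cd52, Cd53, Coro1a and Laptm5) had a lower fitted level in TG, with 0 at an unadjusted p under 0.05 and summed levels of 134 to 292 CPM in NTG and 96.4 to 168 CPM in TG. Their order within groups was like that of class II, with TG 1 below TG 2 and TG 2 below TG 3 for 5 of 5, NTG 2 the highest NTG library for 5 and NTG 3 the lowest for 4. Their part in the class II levels was not tested. Of 14 macrophage markers, 13 were fitted lower and 3 of them, Csf1r, Mrc1 and Cd68, had an unadjusted p under 0.05, against 9.76% of all genes tested. Their summed level was 670 to 1293 CPM in NTG and 584 to 787 CPM in TG. The summed class II level divided by the summed macrophage marker level was 1.19, 0.666 and 0.469 in NTG 1, NTG 2 and NTG 3 and 1.12, 1.09 and 2.10 in TG 1, TG 2 and TG 3. Of 9 dendritic cell markers 8 were tested, with 4 fitted higher and 4 lower, 1 of the 8 higher at an unadjusted p under 0.05 (8.83% of all genes tested), and a summed level of 38.2 to 49.0 CPM in NTG and 52.6 to 66.6 CPM in TG. That gene was Zbtb46 (log2 fold change 0.65, edgeR adjusted p = 0.196, DESeq2 adjusted p = 0.0377), which endothelial cells also express and which made up most of the sum, while Itgax, Flt3 and Xcr1 lay under 7 CPM in each library.

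Lymphocyte markers were scarce. Of 6 B cell markers 2 had enough counts to be tested, and the summed level was 2.60 to 6.49 CPM in NTG and 3.21 to 5.17 CPM in TG. Of 9 T and NK cell markers 5 were tested, with 4 fitted higher and 1 lower, 1 of them higher at an unadjusted p under 0.05 (8.83% of all genes tested), and a summed level of 3.12 to 7.24 CPM in NTG and 3.68, 9.44 and 14.4 CPM in TG 1, TG 2 and TG 3. That gene was Cd8a, the co-receptor that binds class I, which measured 0.956, 0.425 and 0.231 CPM in NTG and 0.505, 2.33 and 2.53 CPM in TG (log2 fold change 1.78, SE 0.69, edgeR adjusted p = 0.231). The log2 fold change was 1.48 for Nkg7, 0.97 for Cd8b1, 0.14 for Cd4 and −0.04 for Cd3g. No marker of this list was at 0 in all libraries, and the part of these cells in the class I and class II levels was not tested. Fibroblast markers were fitted lower in TG for 6 of 6, with 5 at an unadjusted p under 0.05, against 9.76% of all genes tested. Endothelial markers summed to 1650.0 to 1928 CPM in NTG and 1687 to 1855 CPM in TG. At an unadjusted p under 0.05, 1 of the 7 was higher, against 8.83% of all genes, and 1 lower, against 9.76%. These were Kdr (log2 fold change 0.37) and Vwf (−0.81). Cardiomyocyte markers were fitted higher for 6 of 6, with 2 at an unadjusted p under 0.05, against 8.83%. The part of this makeup in the results was likewise not tested.

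The genes that supply peptides to class I were compared as a list of 10. By unadjusted p, 4 were higher under 0.05, against 8.83% of all genes tested, and 0 were lower. All TG libraries lay above all NTG libraries for 5, against 11.2% of all genes, and below them for 1, Pdia3, against 12.3%. DESeq2 called 3 of them higher, against 1.54% of all genes, all parts of the immunoproteasome, the form of the proteasome induced by interferon, or of its activator. Psmb8 measured 15.8, 14.2 and 12.8 CPM in NTG and 20.8, 28.7 and 56.3 CPM in TG, where TG 3 stood apart. Its log2 fold change with all libraries was 1.31 (SE 0.35, edgeR adjusted p = 0.196, DESeq2 adjusted p = 0.00646). Psmb9 had a log2 fold change of 1.19 (adjusted p = 0.203 with edgeR and 0.0170 with DESeq2) and Psme1, a subunit of the PA28 activator, one of 0.63 (adjusted p = 0.196 and 0.0339). Psmb10 of the immunoproteasome and Psme2 of PA28 were not called, with log2 fold changes of 0.44 and 0.57 (DESeq2 adjusted p = 0.146 and 0.273). The general chaperones of the list had log2 fold changes of 0.06 for Canx, −0.13 for Calr and −0.27 for Pdia3, and the tapasin-related gene Tapbpl had one of 0.53. Psmb8 and Psmb9 lie next to Tap1 on chromosome 17, at 34197721 to 34201454 and 34181988 to 34187764.

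Of 9 genes of class II processing, 8 were fitted lower in TG, with 4 at an unadjusted p under 0.05, against 9.76% of all genes tested, and a median log2 fold change of −0.48. Most of these are lysosomal genes with uses in many cells besides antigen processing, and March1 and March8 encode membrane ubiquitin ligases. Ctsl, a cathepsin that degrades the invariant chain in thymus and elsewhere, measured 251, 274 and 251 CPM in NTG and 166, 199 and 191 CPM in TG, without overlap (log2 fold change −0.48, SE 0.11, edgeR adjusted p = 0.196, DESeq2 adjusted p = 0.00630). Ctsb and Ctsd had log2 fold changes of −0.56 and −0.34, also without overlap. Ctss, the cathepsin that removes the invariant chain in antigen-presenting cells, measured 76.0, 163 and 66.6 CPM in NTG and 43.3, 63.6 and 77.1 CPM in TG. DESeq2 called 1 of the 9 lower, Ctsb, since Ctsl and Ctsd did not reach a log2 fold change of 0.5 in size, against 2.4% of all genes.

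**Figure D4:**
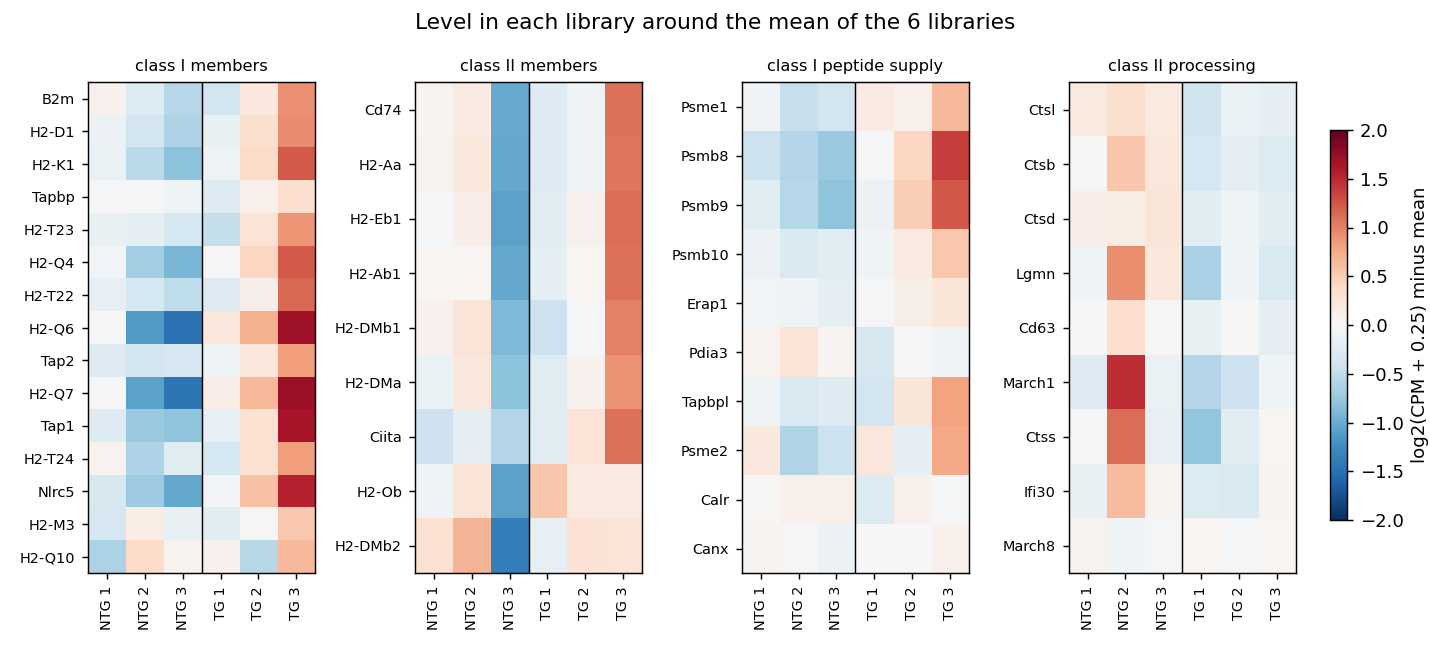
Level of each gene in each library as log2(CPM + 0.25) minus its mean over the 6 libraries, from blue (lower) to red (higher), for the tested class I and class II genes and the lists of class I peptide supply and class II processing. Psmb8 and Psmb9 share the dark TG 3 column of class I, while Ctss, Lgmn and March1 are darkest in NTG 2.

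Of 17 genes for the factors that bind X and Y boxes and for interferon gamma signalling, 16 were tested. At an unadjusted p under 0.05, 4 were higher, Irf1 and Rfxap among them, against 8.83% of all genes tested, and 1 was lower (Ifngr1, a chain of the interferon gamma receptor), against 9.76%. Irf1, an interferon-induced factor that binds interferon response elements, measured 39.1, 19.7 and 21.8 CPM in NTG and 43.8, 42.2 and 71.5 CPM in TG, without overlap. Its log2 fold change was 0.97 (SE 0.32, edgeR adjusted p = 0.214, DESeq2 adjusted p = 0.0378). Ifng itself had too few counts to be tested, with 0 CPM in NTG and TG 1, 0.0569 CPM in TG 2 and 0.247 CPM in TG 3. The RFX and NF-Y subunits other than Rfxap lay between −0.23 and 0.24.

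Among 10 other class I-like and co-stimulatory genes, 9 were tested, with 3 higher and 2 lower at an unadjusted p under 0.05, against 8.83% and 9.76% of all genes tested. Cd1d1, which presents lipids, measured 1.502, 1.17 and 0.694 CPM in NTG and 2.81, 2.44 and 2.72 CPM in TG (log2 fold change 1.25, SE 0.33, edgeR adjusted p = 0.196, DESeq2 adjusted p = 0.0463). The TG libraries were close together for Cd1d1. Cd274, the inhibitory ligand PD-L1, measured 13.6, 7.70 and 8.79 CPM in NTG and 13.6, 18.4 and 66.6 CPM in TG, where TG 3 stood apart (log2 fold change 1.72, SE 0.63, edgeR adjusted p = 0.229). Cd80, which binds CD28 on T cells, measured 7.24, 9.45 and 7.58 CPM in NTG and 5.41, 5.69 and 3.40 CPM in TG (log2 fold change −0.75, SE 0.24, edgeR adjusted p = 0.204).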

How the data were processed

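Per the labels and the study's methods, poly-A selected RNA was sequenced on Illumina, and the authors cleaned the reads and counted them per gene with featureCounts. The submitters' processing notes name HISAT2, DESeq2 and the build GRCh38, a human build, although the deposited identifiers are mouse and 53585 of 54532 genes have GRCm38 positions of GENCODE M21. Strand setting is not given in the sources used here. The deposited values used are raw counts per gene, with 0 columns of sample values left unmatched.

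Counts were scaled by TMM and filtered by filterByExpr, and TG was compared with NTG in edgeR 4.0.16 (R 4.3.3) by the quasi-likelihood test, with Benjamini-Hochberg adjustment over 14774 genes. A gene was called at adjusted p below 0.05 when its log2 fold change also passed 0.5 in either direction. DESeq2 1.42.0 and limma 3.58.1 (voom) were alternatives, with other scalings and filters and each library left out in turn. The script was tested on simulated data. No pair of libraries agreed within sampling noise. Log2 CPM used a prior count of 2. Full values went to classical chains, B2m, Cd74, both transactivators, TAP, tapasin, H2-DM and the 5 genes with the smallest unadjusted p, and from other lists to up to 3 genes by unadjusted p and those at the ends. Cd8a, Ctss, Zbtb46 and other marker genes beyond this rule were named after their values had been seen. The genes and lists were chosen with earlier results of these data known. The values of 1 gene of these lists are not reported here.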

Additional observations from a re-analysis of the deposited data

How the results depend on the processing

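Of 431 log2 fold changes of single genes over 18 other settings, 18 changed sign, 14 passed the threshold and 399 did neither. DESeq2 called 228 genes higher and 355 lower in all, with 4 of the antigen presentation genes, and the likelihood-ratio test 206, 339 and 4 (H2-Q4, H2-Q6, H2-Q7 and Nlrc5). With no low-count filter 116 and 116 were called, and 5 of the 24 had an unadjusted p under 0.05, against 9 with the filter. Leaving out 1 library gave 0 to 404 called higher, 0 to 432 lower and 0 of these genes. DESeq2 called 896, 877 and 6 without NTG 1 and 29, 67 and 0 without TG 3, and edgeR called 7 and 3 without both. The last 2 settings were chosen after seeing the data. The cause was not tested. Signs changed without TG 3 for H2-Aa (−0.0043), Tapbp (−0.0064), H2-DMb1 (−0.12), H2-M3 (−0.00043), H2-Q10 (−0.27) and H2-DMb2 (−0.019), with DESeq2 for Tapbp (−0.00027), H2-DMb1 (−0.11), H2-Q10 (−0.25) and H2-DMb2 (−0.018), and without NTG 1 as well for H2-DMb1 (−0.014), H2-M3 (−0.11) and H2-Q10 (−0.54). They also changed for H2-Q10 without NTG 1 (−0.11, and −0.10 with DESeq2) and for H2-DMb2 with library size alone (−0.029), without NTG 3 (−0.44) and without TG 2 (−0.046). With single libraries left out, these log2 fold changes ran from −0.0043 to 0.77 for H2-Aa, −0.0064 to 0.29 for Tapbp, −0.12 to 0.68 for H2-DMb1, −0.00043 to 0.40 for H2-M3, −0.27 to 0.46 for H2-Q10 and −0.44 to 0.63 for H2-DMb2. Without the Q and T region genes the class I median was 0.75.

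The labels do not say whether equal replicate numbers pair the libraries. Deviations from the group means correlated at 0.0807, 0.173 and −0.252 for equal numbers, and NTG 1 and NTG 3 correlated better with another number. With 3 libraries per group these deviations cancel out for each gene, so the correlations cannot decide whether the libraries are paired. With a replicate block 84 genes were called higher and 147 lower, with 0 of the antigen presentation genes, 2 of the 24 higher at an unadjusted p under 0.05, against 11.2% of all genes, and the class medians were 0.68 and 0.49. Counts of 3 to 33 per library limit H2-DMb2 and H2-Q10.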

Other observations

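Rows named with the H2- prefix that are not protein-coding were outside the list. Of 11 such rows, 4 had enough counts to be tested. H2-Q5, beside H2-Q4 and H2-Q6, measured 9.35, 4.51 and 3.82 CPM in NTG 1, NTG 2 and NTG 3 and 10.96, 12.8 and 26.8 CPM in TG 1, TG 2 and TG 3, without overlap (log2 fold change 1.53, SE 0.46, edgeR adjusted p = 0.204). H2-T10, which shares sequence with H2-T22, measured 3.14, 3.77 and 2.60 CPM in NTG and 4.04, 4.15 and 5.93 CPM in TG (log2 fold change 0.57, SE 0.25, edgeR adjusted p = 0.275). H2-K2 had a log2 fold change of 0.84 (adjusted p = 0.295, edgeR) and H2-T-ps one of 0.11 (adjusted p = 0.933, edgeR). With DESeq2 the adjusted p was 0.0142 for H2-Q5, 0.284 for H2-T10 and 0.264 for H2-K2.

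The ratio of H2-Q6 to H2-Q7 counts was 1.89, 1.84 and 1.88 in NTG and 2.02, 1.98 and 1.90 in TG, while the level of each was lowest in NTG 3 and highest in TG 3. The ratio of Tap1 to Tap2 counts was 1.04, 0.801 and 0.743 in NTG and 0.984, 1.10 and 1.81 in TG, so that the groups overlapped.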
